A study of Danio rerio with 6 samples.

Results

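Many zebrafish genes carry only a provisional name. The prefix si: marks genes annotated on sequenced clones at the Sanger Institute, and zgc: marks genes from cDNA clones of the Zebrafish Gene Collection. Other genes have an Ensembl identifier and no symbol. The genes described here are clone-named or unnamed genes whose level differed between hindbrain cells of embryos kept in retinoic acid (RA) and in its solvent DMSO. They were chosen by level alone. CPM is a gene's count over its library's sum, times the same constant in every library. A gene was taken if its lowest RA value was at least 1.5 times its highest DMSO value, or if its lowest DMSO value was at least 1.5 times its highest RA value, with a mean of at least 2 CPM in the higher group. This gave 39 members, 27 higher and 12 lower in RA, of 9605 clone-named or unnamed genes and 32520 genes in all. Because the rule used the RA and DMSO values, the members' own differences are a description and were not tested.

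All embryos carried the Tg(isl1:Kaede) transgene, in which the isl1 promoter drives a fluorescent protein in cranial motor neurons among other cells, and all were kept in 0.2 mM PTU, a blocker of pigment formation. The RA group received 50 nM RA in DMSO from 24 hours post fertilization (hpf), and the control group received DMSO alone. At 38 hpf fluorescent live cells, labelled as vagus motor neurons, were sorted from dissected posterior hindbrain. Each group has 3 libraries, DMSO replicates 1, 4 and 10 and RA replicates 6, 9 and 12, and values are given in that order throughout. The labels do not say that replicates came from separate clutches, so p-values measure only the spread between these libraries.

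RA binds RA receptors, which pair with retinoid X receptors on DNA and switch nearby genes on. Hox genes, clustered genes for transcription factors that give cells their position along the body axis, are classic targets. Vertebrate hox clusters also hold long noncoding and antisense transcripts, many of them without a name of their own. For a clone-named gene the neighbourhood on the chromosome is therefore often the main information at hand.

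The libraries held 15971653 to 23411427 counted fragments. Of 14 genes of the RA pathway and its targets, 5 rose and none fell at an adjusted p-value of 0.05 in edgeR's quasi-likelihood test. They were cyp26a1, dhrs3a, dhrs3b, crabp2b and hoxb1b, where 0.446% of all tested genes rose. The gene cyp26a1, for an enzyme that degrades RA, had 4.90, 1.92 and 3.03 CPM under DMSO against 3206, 424.5 and 1114 CPM under RA. Farthest down, without passing, were cyp26c1 and rarga, at log2 fold changes of -1.06 and -0.91. Markers of motor neurons summed to 5878 to 7739 CPM under DMSO and 3985 to 5024 CPM under RA. In bulk samples fewer cells of a type and less RNA per cell cannot be told apart. Only 2 of 4 endothelium markers could be matched, and they summed to 75.8 to 91.7 CPM under DMSO and 7.60 to 22.04 CPM under RA. Of these only kdrl passed in edgeR. The median log2 fold change of the 2 was -0.32, so the sum does not stand for both. Epidermis markers (679.4 CPM) and neural crest and pigment markers (499 CPM) were highest in RA replicate 9, and muscle markers (969.8 CPM) in RA replicate 6. The part of these cells in the members' levels was not tested.

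Of the 1608 clone-named genes that reached a mean of 2 CPM in a group, 1.68% met the rule as higher and 0.746% as lower. Among all 14742 genes at that level the shares were 1.49% and 1.08%. In edgeR, 38 members could be fitted, and 9 higher and 2 lower ones passed an adjusted p-value of 0.05, where 0.446% of 17270 genes passed as higher and 0.353% as lower. Since the rule used the same contrast, nothing is read from that count.

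**Figure D1:**
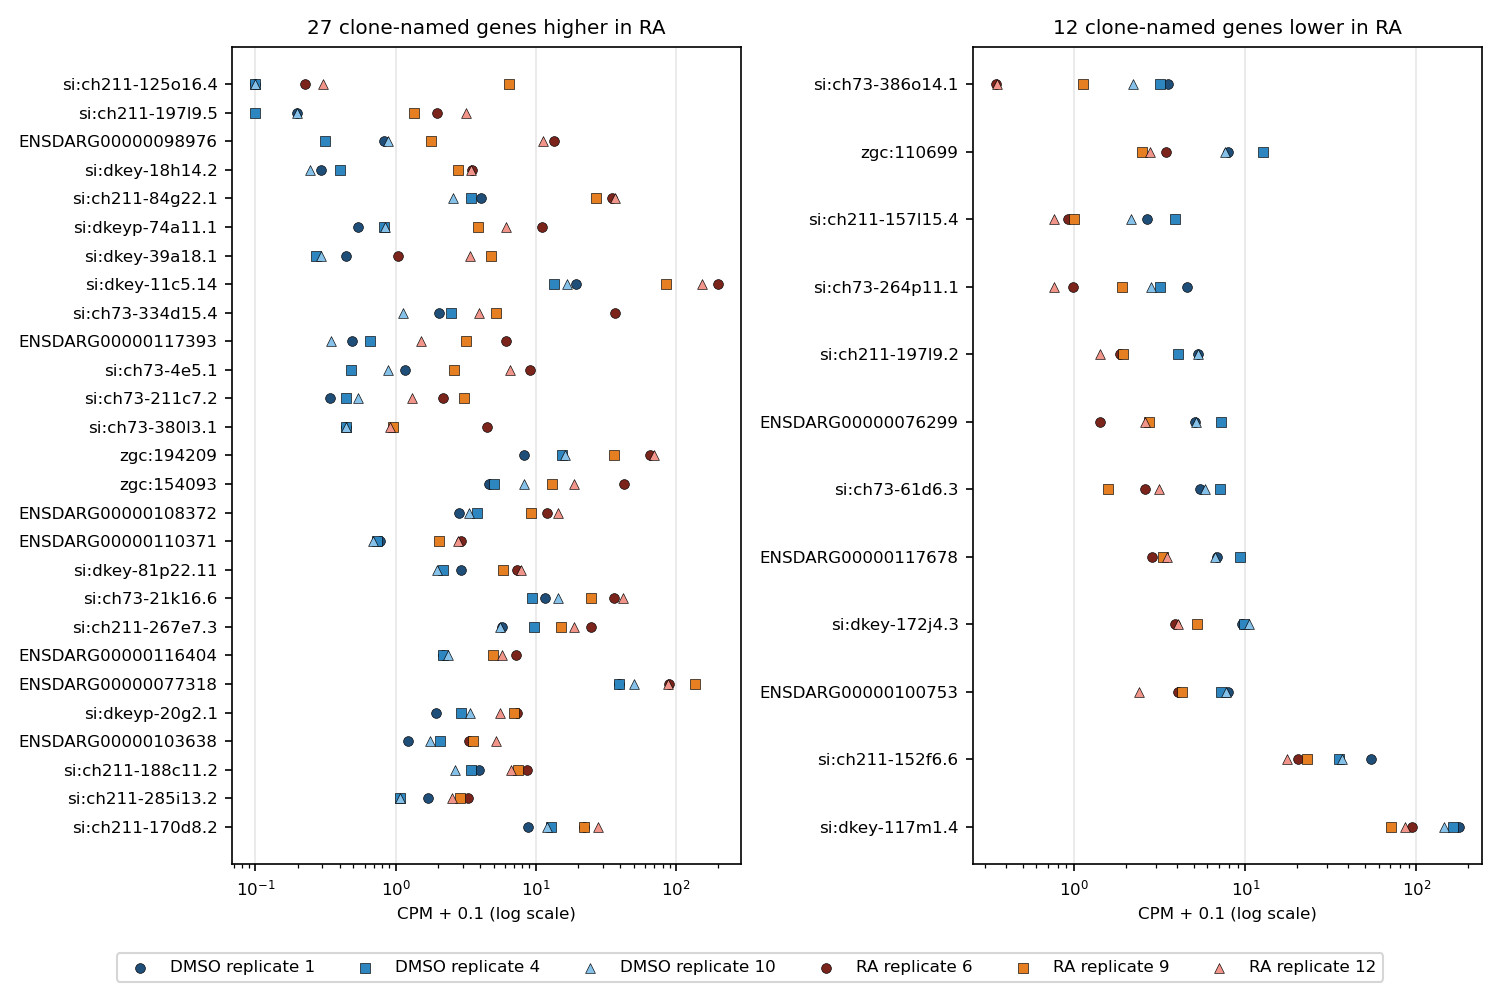
CPM of each member in each of the 6 libraries, on a log scale after adding 0.1, with DMSO libraries in blue and RA libraries in red and orange. The groups do not overlap in any gene because the rule required it, while the spread within RA differs between genes, with 3.38, 2.69 and 3.35 CPM in si:dkey-18h14.2 and 0.125, 6.31 and 0.203 CPM in si:ch211-125o16.4.

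Hox clusters held 3 of the members, and the one with the highest level per length was si:dkey-11c5.14 (ENSDARG00000096750, chromosome 12, 27120117 to 27123577 on GRCz11, reverse strand). It measured 19.1, 13.5 and 16.6 CPM in the DMSO libraries against 198.4, 85.3 and 153 in the RA libraries. Its mean was 16.4 ± 2.82 CPM under DMSO and 145.6 ± 56.9 CPM under RA (SD, n = 3), a ratio of 8.88. Per kb of exon it reached 424.4 CPM under RA, more than any other member. It lies tail to tail with hoxb8b on the other strand, and 55 of its 343 exonic bases are also hoxb8b exon.

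Within 50 kb of it hoxb8b, hoxb6b, hoxb5b, hoxb1b and skap1 met the same rule, and all rose in edgeR. The largest log2 fold changes were those of hoxb1b (3.50, SE 0.31, edgeR adjusted p-value 0.0053) and hoxb8b (3.34, SE 0.35, edgeR adjusted p-value 0.00796). The gene skap1, for an adaptor protein known from T cells, went from 1.76 ± 0.265 to 12.2 ± 1.80 CPM (SD, n = 3), which is 2.77 on the log2 scale (SE 0.27, edgeR adjusted p-value 0.0067). Beyond hoxb8b, ttll6 and srcap lay at 0.52 (SE 0.38) and -0.01 (SE 0.22) on the log2 scale and did not pass.

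The member's reads kept nearly the same proportion to those of hoxb8b in all 6 libraries. For every 100 hoxb8b reads there were 31.3, 31.5 and 28.1 reads of si:dkey-11c5.14 under DMSO and 25.6, 28.6 and 25.6 under RA. Against hoxb5b the same number was 2.17 to 2.75 under DMSO and 3.72 to 5.49 under RA. Against hoxb6b it was 3.60 to 5.00 and 6.32 to 7.69. It moved less against hoxb1b, from 29.3 to 35.9 under DMSO to 24.2 to 27.3 under RA. Against skap1 the groups overlapped, at 700 to 1310 and 771.7 to 1770. Against hoxb1b, hoxb5b and hoxb6b the groups thus did not overlap, and against skap1 the values spread widely within each group. Among these genes a nearly steady proportion was seen only against hoxb8b, with which the member shares exonic bases. Counting ignored strand, so reads of either strand inside the member's own exons were counted for it, and which strand they came from was not tested.

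On chromosome 3, ENSDARG00000097891 (23701915 to 23860941, reverse strand) spans 159027 bases against the direction of the hoxb genes. Though given here by its identifier, it has a clone name, under which the figures show it. It measured 1.07, 0.384 and 0.783 CPM in the DMSO libraries against 9.02, 2.51 and 6.39 in the RA libraries, and the DMSO values rest on counts of 22, 9 and 16. Of its 1412 exonic bases, 481 are also exons of hoxb3a.

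Around it 7 named genes met the rule, all higher in RA. Of these hoxb4a, hoxb5a, hoxb6a, hoxb7a, hoxb8a and hoxb9a rose in edgeR, with log2 fold changes from 1.09 (SE 0.18) in hoxb4a to 4.34 (SE 0.47) in hoxb8a. The gene hoxb1a lay at 1.72 (SE 0.30, edgeR adjusted p-value 0.0514). Those that neither met the rule nor passed were hoxb2a, hoxb3a and hoxb10a, at 0.48 (SE 0.28), 0.95 (SE 0.21) and 1.74 (SE 0.99). The member itself lay at 2.98 (SE 0.59). Over its far end lie hoxb6a at 3.24, hoxb5a at 2.77 and hoxb4a at 1.09. It shares exons with hoxb3a, which lay lower, and the part of hoxb3a reads in its count was not tested.

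Another member, si:ch211-84g22.1 (ENSDARG00000097724, chromosome 3, 23935073 to 23966132, forward strand), lies 74131 bases from that one and 163930 bases from hoxb1a. It measured 3.98, 3.37 and 2.45 CPM in the DMSO libraries against 34.6, 26.9 and 36.5 in the RA libraries. The RA libraries were close to each other, and the lowest was 6.74 times the highest DMSO library. Its log2 fold change stayed between 3.14 and 3.46 in 12 alternative analyses. No named gene of the rule lies within 50 kb. The clone-named si:ch211-246i5.4 shares 71 exonic bases with it and measured 0.486, 0.0854 and 0.0489 CPM against 1.82, 1.07 and 1.57, under the level the rule asks for. At 128448 bases lies copz2, a coatomer subunit, which rose (log2 fold change 2.53, SE 0.40, edgeR adjusted p-value 0.0352).

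In the hoxc cluster, si:dkey-81p22.11 (ENSDARG00000093797, chromosome 23, 36111135 to 36277109, reverse strand) again runs against the hox genes. RefSeq lists it as a long noncoding RNA. It measured 2.82, 2.09 and 1.86 CPM in the DMSO libraries against 7.26, 5.77 and 7.71 in the RA libraries, a ratio of means of 3.06. With hoxc3a it shares 141 exonic bases.

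Around it hoxc1a, hoxc3a, hoxc5a, hoxc6a and hoxc8a met the rule and rose in edgeR, with log2 fold changes of 1.95, 2.57, 1.66, 1.15 and 2.32. The genes hoxc4a and hoxc9a did not pass, at 0.52 (SE 0.17) and 0.25 (SE 0.99), nor did cbx5, for a heterochromatin protein, 20111 bases past the member's start (0.03, SE 0.12). For every 100 hoxc3a reads the member had 3.07, 2.62 and 1.82 reads under DMSO and 1.07, 1.61 and 1.27 under RA. It was scarcer relative to hoxc3a in each RA library than in any DMSO library. This also held relative to hoxc8a. Relative to hoxc1a, hoxc5a and hoxc6a the DMSO and RA libraries overlapped.

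**Figure D2:**
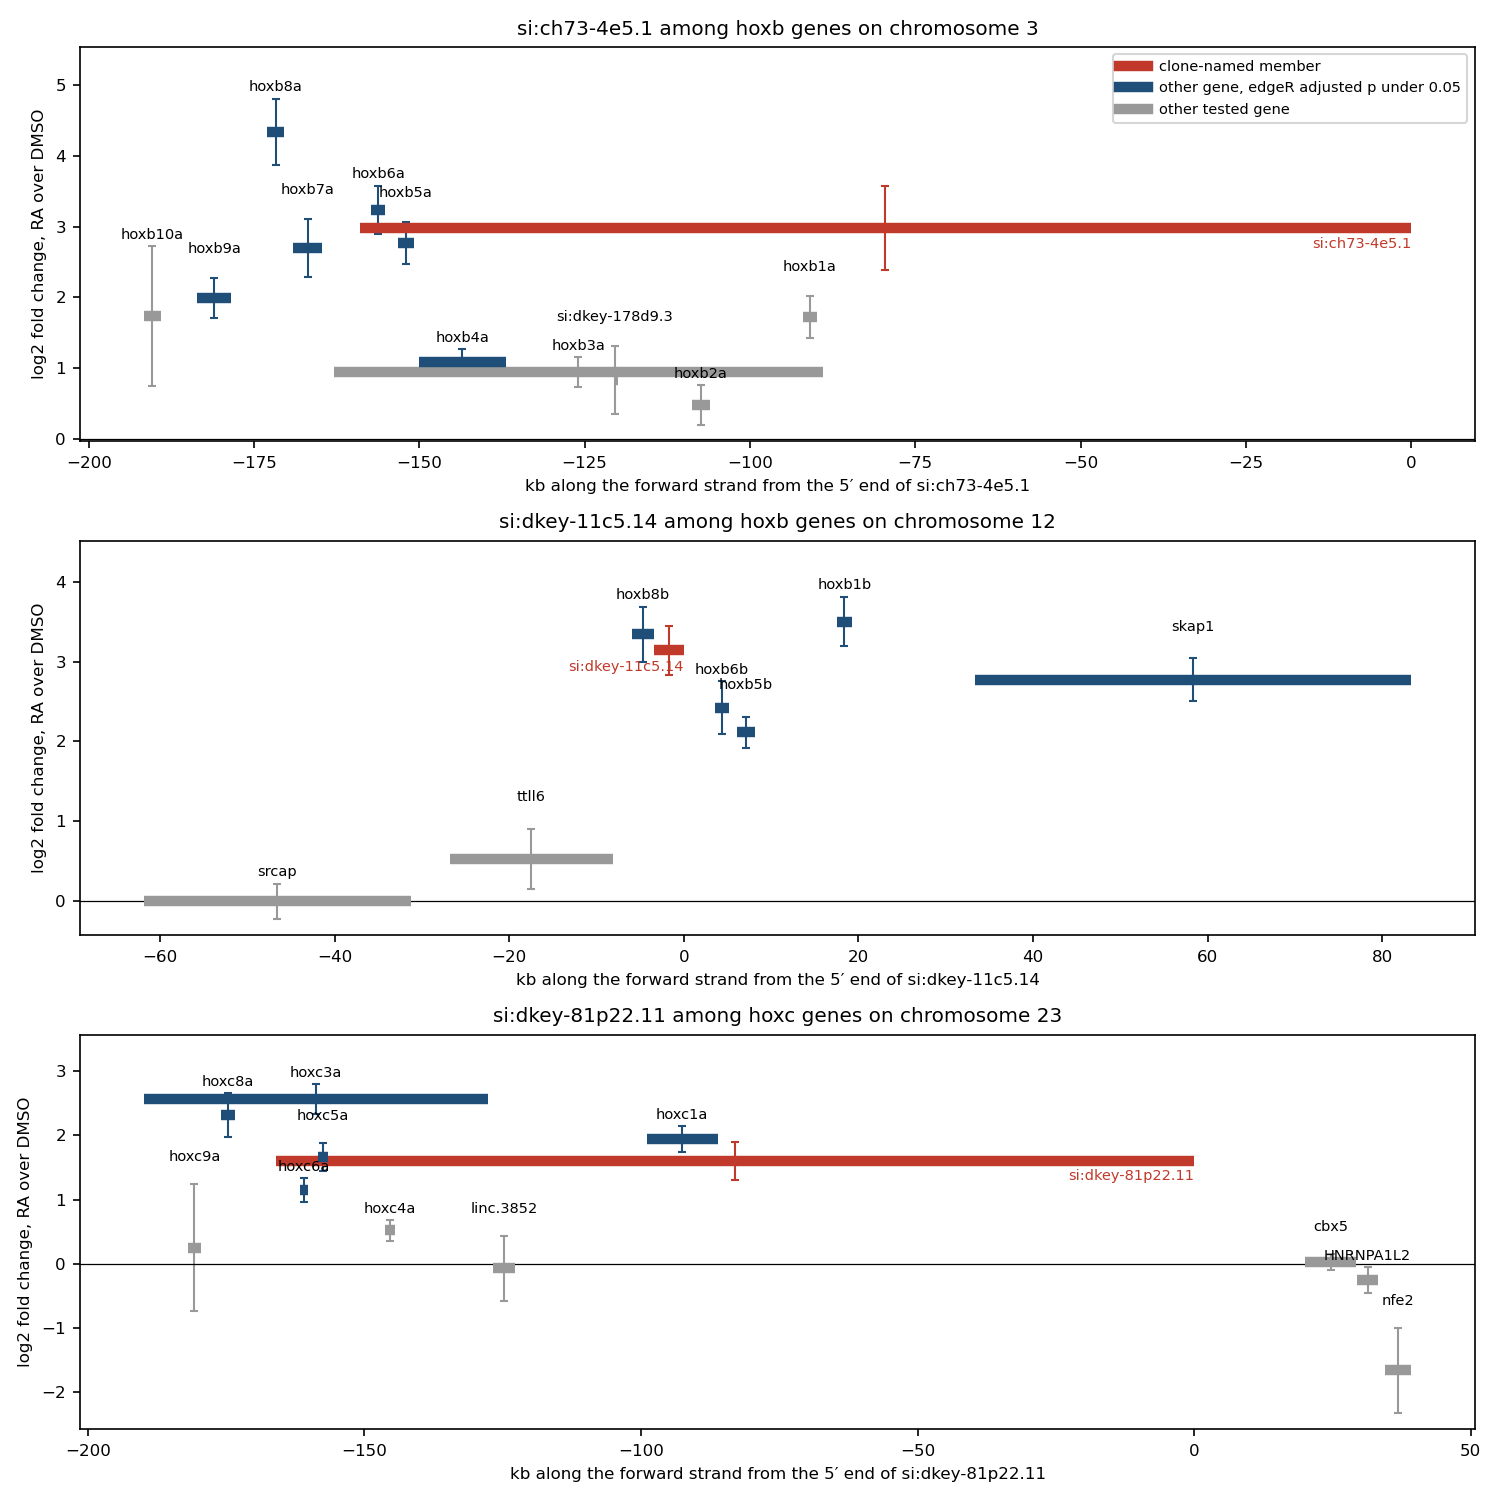
Log2 fold change (RA over DMSO, error bars are SE) of the tested genes within 50 kb of the members in hox clusters on chromosomes 3, 12 and 23, drawn at their place along the forward strand in kb from the member's 5′ end. Members are red, other genes past an edgeR adjusted p-value of 0.05 blue and the rest grey, and the members on chromosomes 3 and 23 span several hox genes while that on chromosome 12 ends at hoxb8b.

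The other 3 members with a named gene of the rule within 50 kb had 1 each. The member si:ch211-285i13.2 (ENSDARG00000097868, chromosome 2, 33038085 to 33041664) measured 1.602, 0.982 and 0.979 CPM in the DMSO libraries against 3.19, 2.77 and 2.43 in the RA libraries. At 10065 bases, on the opposite strand, lies rnf220a, which encodes a ubiquitin ligase. It rose from 10.4 ± 0.273 to 27.1 ± 4.23 CPM (SD, n = 3), which is 1.37 on the log2 scale (SE 0.19, edgeR adjusted p-value 0.0219).

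The single-exon si:ch73-21k16.6 (ENSDARG00000096770, chromosome 20, 46957091 to 46959768) measured 11.5, 9.31 and 14.2 CPM in the DMSO libraries against 36.1, 24.7 and 41.6 in the RA libraries. On the same strand, 7500 bases away, lies dnmt3aa, a de novo DNA methyltransferase. It measured 6.17, 8.54 and 4.75 CPM against 35.8, 13.7 and 28.1, and it did not pass (log2 fold change 1.98, SE 0.37, edgeR adjusted p-value 0.0665). Both genes were lowest in replicate 9 among the RA libraries.

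Inside the span of wnt5b, a secreted Wnt ligand, and on its other strand lies si:ch73-211c7.2 (ENSDARG00000096855, chromosome 4, 8634704 to 8638629). It measured 0.243, 0.342 and 0.441 CPM in the DMSO libraries against 2.07, 2.95 and 1.22 in the RA libraries, from counts of 5, 8 and 9 against 33, 66 and 24. The gene wnt5b had 11.3 ± 3.54 CPM under DMSO and 35.5 ± 8.70 CPM under RA (SD, n = 3) and did not pass (log2 fold change 1.64, SE 0.30, edgeR adjusted p-value 0.0554). They share 8 exonic bases. Without RA replicate 9 the member no longer meets the rule.

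In all, 6 of 39 members (15.4%) had a named gene of the rule within 50 kb, against 34 of 1569 other clone-named genes at 2 CPM or more (2.17%). All 6 were among the 27 higher members (22.2%), and none of the 12 lower members had one. They formed 20 pairs, each with both genes higher in RA. The partner was a hox gene in 16 pairs, and the genes lay on opposite strands in 19. Most pairs came from the members in hox clusters, each of which runs against all the hox genes around it. The pairs are therefore not separate cases of strand or direction, and no share for other pairs was computed. Spans overlapped in 10 pairs and exons in 3. With only the pairs that share exons left out, 5 members kept a partner. With every member that shares exons with any other gene left out, 20 higher and 9 lower members remained. Of these, 2 kept a partner, si:ch73-21k16.6 and si:ch211-285i13.2. The matching share of the other clone-named genes was not computed.

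**Figure D3:**
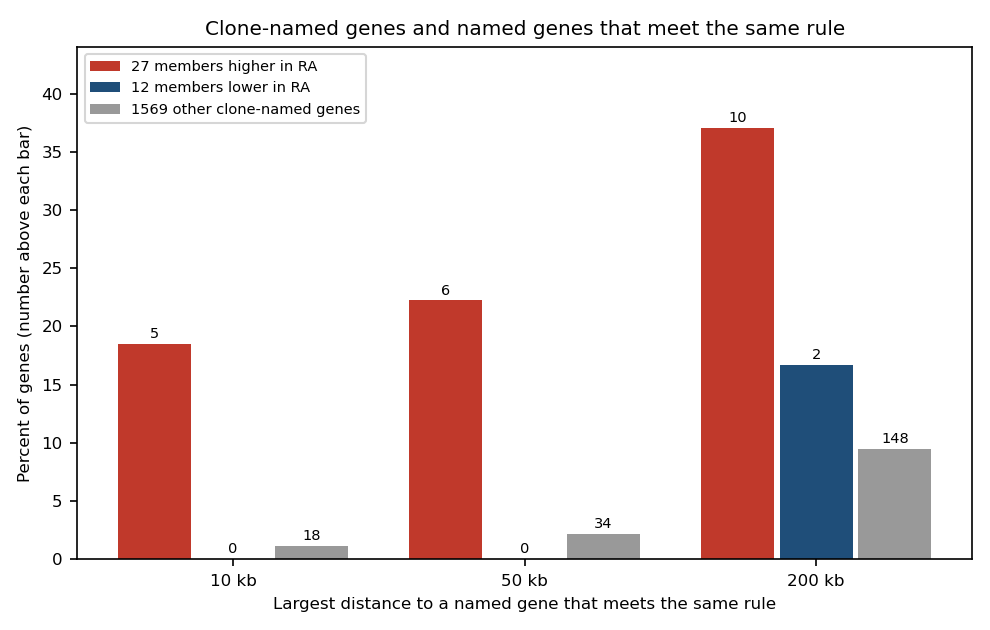
Percent of clone-named genes with a named gene of the same rule within 10, 50 or 200 kb, with the number of genes above each bar, for the 27 higher members (red), the 12 lower members (blue) and the 1569 other clone-named genes at 2 CPM or more (grey). At 50 kb the shares are 22.2%, 0 and 2.17%.

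At 200 kb, 12 members had such a partner (30.8%), against 9.43% of the other clone-named genes. Among the partners added was rxrga, a retinoid X receptor, 126368 bases from the higher member ENSDARG00000075487 on chromosome 2, which rose (log2 fold change 1.46, SE 0.23, edgeR adjusted p-value 0.0352). The lower member si:ch73-264p11.1 (ENSDARG00000091835, chromosome 24) lies 118382 bases from amer2, a regulator of Wnt signalling, which fell (log2 fold change -1.12, SE 0.15, edgeR adjusted p-value 0.0178). It also lies 199217 bases from phex, a membrane peptidase, which rose (log2 fold change 3.45, SE 0.31, edgeR adjusted p-value 0.0053). The lower member ENSDARG00000117678 lies 173063 bases from nrip1a, a cofactor of nuclear receptors, at 1.92 (SE 0.37, edgeR adjusted p-value 0.0711). The partners that went in the direction opposite to the member, phex and nrip1a, lie beside lower members, which had no partner within 50 kb. All partners of higher members were higher in RA, at 50 kb and at 200 kb. A change of direction with distance can therefore not be read from these pairs.

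The neighbours can also be read by edgeR's test, from the same 6 libraries and the same contrast. Of 101 named and tested genes within 50 kb of members, 17 rose and none fell in edgeR. The share of all tested genes that passed in either direction was 0.799%. All 17 also met the rule and are partners in the pairs above. Many lie side by side around the same member, so they are not 17 separate cases. At an unadjusted p-value under 0.05, 31 of the 101 were higher and 4 lower. Among all tested genes 5.30% were higher and 4.94% lower. DESeq2 called 26 higher and none lower, where it called 2.07% of all genes as higher and 1.82% as lower (3.89% in all). Hox genes made up 15 of the 17, from 21 hox genes among the neighbours (71.4%). Around other clone-named genes 7 of 19 hox genes passed (36.8%). These are partly the same hox genes, since si:dkey-178d9.3, which is not a member, lies inside the span of ENSDARG00000097891. The shares are therefore not separate. The rest of the 17, rnf220a and skap1, are 2 of 80 genes that are not hox (2.5%). Around other clone-named genes 9 of 2686 such genes passed (0.335%). None of the 26 neighbours of lower members passed in edgeR or DESeq2 with all 6 libraries, and 1, prdm16 beside si:ch73-386o14.1, passed as lower without RA replicate 9. At an unadjusted p-value under 0.05, 3 of 26 were lower and none higher, against 4.94% and 5.30% of all tested genes (10.2% in all). The count of 17 depended on the libraries. It was 2, 0 and 4 without DMSO replicates 1, 4 and 10, and 11, 20 and 9 without RA replicates 6, 9 and 12. The number of all tested genes that passed also varied with the library left out (range given at the end). These counts are therefore not on the same footing. The 20 without RA replicate 9 include prdm16, and without that library 0.975% of all tested genes passed as higher and 0.856% as lower (1.83% in all). Without DMSO replicate 4, 27 were higher and 2 lower at an unadjusted p-value under 0.05, against 4.16% and 3.82% of all tested genes (7.98% in all).

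For 33 members the nearest named and tested gene within 50 kb could be compared in direction. Its log2 fold change had the member's sign beside 19 of 22 higher members and 5 of 11 lower members, and beside 712 of 1257 other clone-named genes (56.6%). Without members that have a hox gene nearby it was 16 of 19 higher members. Where spans did not overlap it was 14 of 17 higher members and 3 of 8 lower members, together 17 of 25 (68%), against 55.8% of the other genes. The nearest gene's log2 fold change had a median of 0.58 beside higher members, 0.02 beside lower members and 0.01 beside the other genes. Signs were counted whatever the size, so genes with a log2 fold change smaller than its SE count too. Examples are ercc2 at 0.04 (SE 0.16), with its member's sign, and hps4 at -0.1 (SE 0.34), against it.

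Some of these nearest genes were well off 0 without passing. The zinc finger gene tshz3b, 55 bases from si:ch211-188c11.2, measured 252.7, 165.6 and 151.6 CPM against 632.6, 336.6 and 325.5 (log2 fold change 1.17, SE 0.30, edgeR adjusted p-value 0.158). The chromatin cofactor gene mllt10, 1823 bases from ENSDARG00000077318, lay at 0.78 (SE 0.15, edgeR adjusted p-value 0.0681). The zinc finger gene hivep3b, 14723 bases from si:dkey-18h14.2, lay at 2.14 (SE 0.65, edgeR adjusted p-value 0.245). Beside lower members the farthest off 0 was prdm16, for a zinc finger transcription factor, which overlaps si:ch73-386o14.1 with 71 exonic bases. It measured 11.94, 9.35 and 7.98 CPM against 1.38, 6.26 and 1.22 (log2 fold change -1.72, SE 0.60, edgeR adjusted p-value 0.345). In this pair both genes stood nearest to DMSO in RA replicate 9.

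**Figure D4:**
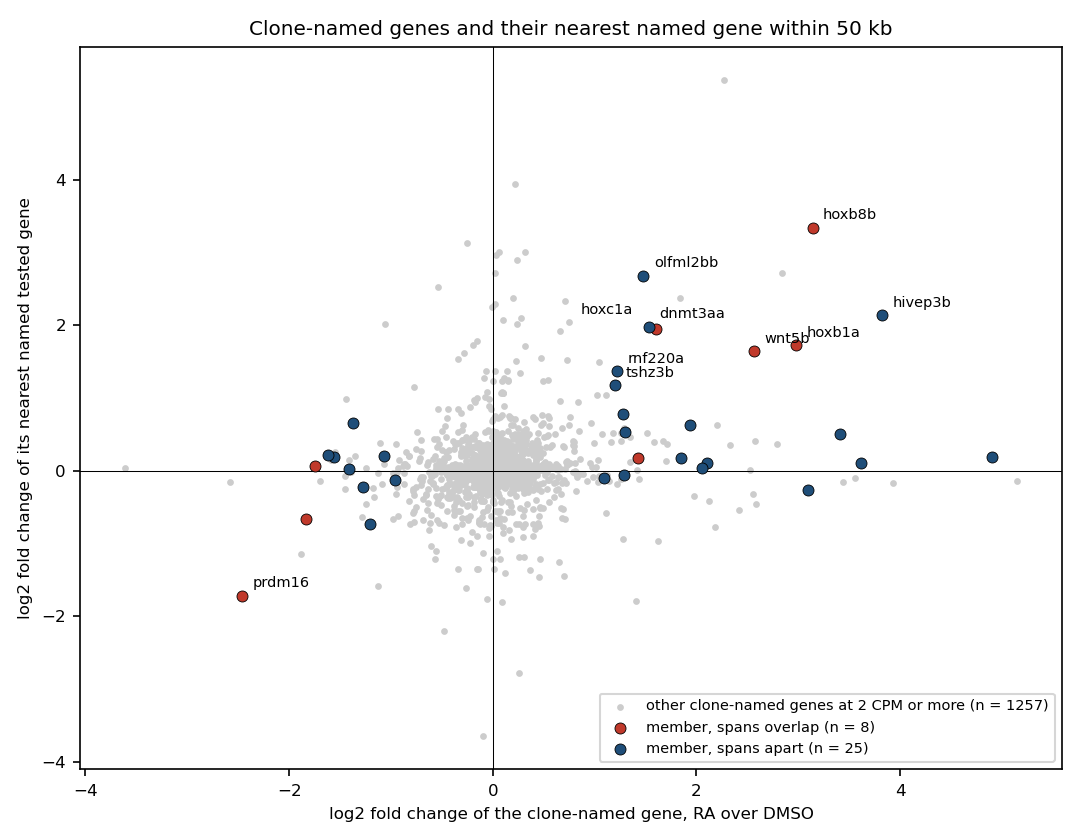
Log2 fold change (RA over DMSO) of each clone-named gene against that of its nearest named tested gene within 50 kb, with 8 members whose span overlaps that gene in red, 25 members apart from it in blue and 1257 other clone-named genes in grey. Names mark the members' neighbours beyond 1 on the log2 scale in either direction, and 9 of these 10 lie beside higher members.

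Most higher members had no named gene of the rule nearby, and several were nearly absent under DMSO. The protein-coding si:ch211-125o16.4 (ENSDARG00000056836, chromosome 17, 22544648 to 22552678) had no count in any DMSO library and 2, 141 and 4 counts under RA. A count of 0 allows 0.128 to 0.147 CPM there (3 counts, counting error only), and the RA values were 0.125, 6.31 and 0.203 CPM. It meets the rule through RA replicate 9, the library with the highest epidermis and neural crest marker sums, and leaves the set without it.

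The gene si:ch211-197l9.5 (ENSDARG00000086679, chromosome 23, 31041058 to 31060350) had 2, 0 and 2 counts under DMSO and 30, 28 and 61 under RA, the latter 1.88, 1.253 and 3.09 CPM. All 3 RA libraries were far above the DMSO libraries, and without RA replicate 12 the mean is too low for the rule. At 44301 bases lies the lower member si:ch211-197l9.2 (ENSDARG00000078244, protein coding), which measured 5.20, 3.93 and 5.19 CPM against 1.75, 1.83 and 1.32. Between them lies selenoi, for an enzyme of phospholipid synthesis, at a log2 fold change of 0.19 (SE 0.28). This was the only pair of members within 50 kb of each other, and its members went in opposite directions.

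On chromosome 16, si:dkey-18h14.2 (ENSDARG00000091368) measured 0.194, 0.299 and 0.147 CPM in the DMSO libraries against 3.38, 2.69 and 3.35 in the RA libraries. On chromosome 9, si:dkeyp-74a11.1 (ENSDARG00000075264) measured 0.437, 0.726 and 0.734 CPM against 10.9, 3.76 and 6.03. The protein-coding si:dkey-39a18.1 (ENSDARG00000045669, chromosome 4) measured 0.34, 0.171 and 0.196 CPM against 0.939, 4.65 and 3.30. The first of these was even across RA, the second highest in RA replicate 6 and the third lowest there.

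Unnamed genes on unplaced scaffolds were also among the higher members. ENSDARG00000098976 measured 0.728, 0.214 and 0.783 CPM against 13.4, 1.70 and 11.2, and no annotated gene lies within 50 kb on its scaffold. ENSDARG00000117393 measured 0.388, 0.555 and 0.245 CPM against 6.01, 3.09 and 1.42. Both spread widely within RA, the first with replicate 9 and the second with replicate 12 as the lowest.

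RA replicate 6, which had the highest muscle marker sum, set the size of some members. The protein-coding si:ch73-334d15.4 (ENSDARG00000056502, chromosome 24) measured 1.94, 2.39 and 1.03 CPM against 36.4, 5.06 and 3.85. Its log2 fold change was 3.05, and 1.31 without RA replicate 6. The gene si:ch73-380l3.1 (ENSDARG00000075697, chromosome 15) measured 0.34, 0.342 and 0.343 CPM against 4.38, 0.85 and 0.811, and leaves the set without that library. The part of muscle cells in these values was not tested.

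Other higher members were well above 1 CPM in every DMSO library. The protein-coding zgc:194209 (ENSDARG00000039356, chromosome 4) measured 8.11, 15.3 and 16 CPM in the DMSO libraries against 64.9, 35.8 and 69.6 in the RA libraries, and zgc:154093 (ENSDARG00000055897, chromosome 15, protein coding) 4.52, 4.91 and 8.12 against 42.2, 12.9 and 18.6. Unnamed ENSDARG00000108372 on chromosome 12 measured 2.72, 3.72 and 3.23 CPM against 11.8, 9.08 and 14.2. The single-exon ENSDARG00000077318 (chromosome 24) measured 39, 39.2 and 49.9 CPM against 89.5, 136.8 and 87. Unlike most higher members, it was highest in RA replicate 9.

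The protein-coding ENSDARG00000075487 (chromosome 2) and si:ch211-170d8.2 (chromosome 8) had ratios of means of 2.82 and 2.15. The first, which also has a clone name that labels it in the figures, shares 350 exonic bases with another clone-named gene. The last 5 higher members, ENSDARG00000110371, ENSDARG00000116404, ENSDARG00000103638, si:dkeyp-20g2.1 and si:ch211-188c11.2, had RA means from 2.48 to 7.50 CPM and ratios from 2.32 to 3.89. The symbol si:dkeyp-20g2.1 stands on several gene identifiers with overlapping exons, 1086 bases in all, so its count is uncertain.

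The lower members had DMSO means 1.93 to 5.63 times their RA means. The greatest ratio was that of si:ch73-386o14.1 (ENSDARG00000091917, chromosome 8, 48092911 to 48095981), which measured 3.45, 3.08 and 2.10 CPM in the DMSO libraries against 0.25, 1.03 and 0.253 in the RA libraries. Next was si:ch211-157l15.4 (ENSDARG00000096774, chromosome 20), with 2.57, 3.76 and 2.06 CPM against 0.814, 0.895 and 0.659. Its span overlaps the zinc finger gene hivep2a on the other strand, at -0.67 (SE 0.59).

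The protein-coding zgc:110699 (ENSDARG00000017474, chromosome 7, 38811800 to 38822387) measured 7.87, 12.6 and 7.54 CPM against 3.32, 2.37 and 2.69, from 53 fragments in each RA library. Of its 2817 exonic bases, 950 are shared with phf21aa on the other strand, for a chromatin reader, which lay at 0.06 (SE 0.18). Reads of the 2 genes in those bases cannot be told apart without strand.

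The most abundant lower member was the protein-coding si:dkey-117m1.4 (ENSDARG00000093120, chromosome 1, 40057412 to 40086978). It measured 176.8, 164 and 144.5 CPM in the DMSO libraries against 94.4, 70.7 and 85.7 in the RA libraries, from 1508 to 3839 counts. It was followed by si:ch211-152f6.6 (ENSDARG00000081299, chromosome 3), with 54.4, 35.1 and 36.4 CPM against 20.3, 22.7 and 17.5. The named gene nearest to it, mvp, for the major vault protein, lay at 0.20 (SE 0.25).

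The other lower members had DMSO means from 3.41 to 9.84 CPM. The protein-coding si:dkey-172j4.3 (ENSDARG00000074183, chromosome 7) measured 9.42, 9.74 and 10.4 CPM against 3.76, 5.15 and 3.95, and si:ch73-61d6.3 (chromosome 8, protein coding) 5.29, 7.01 and 5.73 against 2.504, 1.48 and 3.04. The protein-coding si:ch73-264p11.1 measured 4.47, 3.08 and 2.69 CPM against 0.877, 1.79 and 0.659. In these the RA libraries differed by less than 3-fold. Unnamed ENSDARG00000117678, ENSDARG00000076299 and ENSDARG00000100753 had DMSO means of 7.48 ± 1.44, 5.71 ± 1.20 and 7.50 ± 0.371 CPM, and RA means of 3.11 ± 0.326, 2.15 ± 0.724 and 3.46 ± 1.03 CPM (SD, n = 3).

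Some members stand just inside the rule. The lowest RA library of si:ch211-285i13.2 was 1.519 times its highest DMSO library, and the lowest DMSO library of si:ch73-264p11.1 was 1.504 times its highest RA library. Just outside were si:ch1073-429i10.1 as higher, at 1.496, and si:dkey-202p8.1 as lower, at 1.466. On the level, si:ch73-380l3.1 had a mean of 2.02 CPM, and ENSDARG00000113016 missed it with 1.84 CPM.

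The RA libraries did not contribute alike. Of the 27 higher members, 15 were highest in RA replicate 6 and 15 lowest in RA replicate 9. Among all 14742 genes at 2 CPM or more, 26.4% were highest in replicate 6 among the RA libraries and 39.5% lowest in replicate 9. Other genes that met the rule as higher were highest in replicate 6 in 126 of 193 cases, and cyp26a1 was likewise highest in replicate 6 and lowest in replicate 9 under RA. Of the 12 lower members, 8 were highest in RA replicate 9 among the RA libraries, as were 38.4% of all genes at 2 CPM or more. Summed over the higher members, the level was 122.9, 130.8 and 146 CPM in the DMSO libraries against 652.2, 436.2 and 542.9 in the RA libraries.

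In structure, the members had a median exonic length of 1889 bases, against 1958 in the other clone-named genes at 2 CPM or more, and a median of 5 exon blocks against 4. Of the 39, 10 had no symbol (25.6%, against 26.8%), 3 had a single exon (7.69%, against 4.91%) and 3 lay on unplaced scaffolds (7.69%, against 4.21%). The span of 15 members overlapped another gene (38.5%, against 31.4%), and the exons of 10 did (25.6%, against 17.4%). RefSeq held 15 of the clone names on the same chromosome, 14 of them protein coding and 1 a long noncoding RNA.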

How the data were processed

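The deposited values are raw counts of fragments per gene, which the authors made with featureCounts 1.6.0 from read pairs, ignoring strand, on Ensembl release 95 of GRCz11, per the file headers. The submitters' processing notes name STAR 2.5.2a. Library preparation used a SMART-Seq v4 cDNA kit, per the labels. Coordinates are outermost exon ends. Symbols came from a table covering 29201 genes, and 10952 orthologue symbols were replaced by the RefSeq symbol (GRCz12tu, names only) of a single gene of that name, alone or with the suffix a or b, on the same chromosome. The 3319 genes without a symbol count as unnamed.

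CPM used plain library sums. Distances run between outermost exon ends, and overlap counts as 0. Tests used edgeR 4.0.16 in R 4.3.3 (filterByExpr, TMM, quasi-likelihood, two-sided, Benjamini-Hochberg over 17270 genes, threshold 0.05), with DESeq2 1.42.0 as an alternative. The edgeR script was checked on simulated counts. SE is the log2 fold change over the square root of F. No batch or pairing was fitted. Members named were the 12 with the largest ratio of means per direction (0.1 CPM added), the 6 most abundant per direction and those with a neighbour of the rule. Other members and neighbours were named after their values were seen. The members and lists were chosen with earlier results of these data known.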

Additional observations from a re-analysis of the deposited data

How the results depend on the processing

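The number of members followed the rule's settings. With the lower fold limit tried there were 50 higher and 30 lower members, 20 with a partner within 50 kb, and with a fold of 2 there were 17, 4 and 3. A minimum of 1 CPM gave 20 lower members and 10 with a partner, a minimum of 5 CPM gave 17 higher members, and no minimum gave 730, 1058 and 355. TMM or DESeq2 scaling gave 25 to 27 higher and 14 to 15 lower members. Leaving out 1 library gave 40 to 55 higher members, 16 to 28 lower members and 8 to 11 with a partner, since fewer libraries make the rule easier to meet, and 37 to 39 of the members were kept. At 200 kb 12 members had a partner. With pairs that share exons left out 5 did. Counting only the first gene on either side outside the member's span also gave 5. With members that share exons with any other gene left out, an alternative chosen after seeing the data, 2 did.

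With edgeR 77 genes were higher and 61 lower. Without a filter on low counts they were 156 and 120, with DESeq2 357 and 314, and with 1 library left out 3 to 173 and 4 to 152. Of the members' named neighbours 17 passed, 26 with DESeq2 and 0 to 20 with 1 library left out, also added after seeing the data. The log2 fold changes recomputed for named members and their partners kept their sign in every alternative run. The rule that chose both sets nearly fixed this in advance, so nothing is read from it. No paired analysis was possible because the groups share no replicate number. The promoter motif share was not run, since no promoter sequence was used here. Members under 1 CPM in DMSO rest on few counts.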
